A study of Mus musculus with 8 samples.

Results

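Genes of protein entry into the endoplasmic reticulum (ER) and of the COPII and COPI vesicle coats were compared between cultured adult mouse cardiomyocytes that received an siRNA against Hoxa5 and those that received a control siRNA. The genes were chosen by name, from symbols of the signal recognition particle (SRP) and its receptor, the SEC series, the SSR, RPN and STT3 genes, the coatomer, SAR1, the TMED (p24) proteins, the KDEL receptors and the TRAPP complexes. Of 92 matching symbols in a table of 33514 rows, 41 had at least 16 counts summed over all 8 libraries, and these 41 are the members. The minimum counted both groups together, so it did not use the difference between them. The members nearest above it were TRAPPC2 with 16 counts and TRAPPC4 with 20, and the symbols nearest below were SRP68 with 6 and TMED10 and 3 others with 5. Of the 51 symbols left out, 31 had 0 counts in all libraries and 20 had 1 to 6.

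All 8 libraries came from C57BL/6 cardiomyocytes, isolated by collagenase digestion, plated on coated dishes and treated with phenylephrine (100 µM, 24 h), an alpha1-adrenergic agonist used to induce hypertrophic growth. Phenylephrine was added 24 h after transfection. In 4 libraries the siRNA was the control (siN) and in 4 it was directed against the homeobox gene Hoxa5 (siHoxa5). The labels give no age or sex, name no separate animals or cultures behind the repeats, and do not give the siRNA sequences, so the spread between libraries may be technical. No library without phenylephrine was used here.

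Proteins destined for membranes, the sarcoplasmic reticulum or secretion enter the ER while they are made. SRP binds the signal sequence and docks the ribosome at the SRP receptor, the SEC61 channel passes the chain with help from SEC62, SEC63 and the TRAP complex, signal peptidase removes the signal, and the oligosaccharyltransferase adds N-linked glycans. COPII vesicles then carry cargo from the ER towards the Golgi, COPI vesicles return escaped proteins and receptors, and TRAPP complexes tether vesicles and activate RAB GTPases. In heart muscle the same route supplies ion channels, receptors and the calcium-handling membrane proteins.

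Library totals were 635824 to 658192 counts in siN and 560190 to 619942 in siHoxa5, and the table gives mouse data under symbols spelled as human genes are. Some of these are names of human genes, such as C6orf62 and AL133387.3. Whether a row at 0 reflects expression or the annotation that was counted was not tested. HOXA5, the target, had 2, 0, 3 and 3 counts in siN libraries 1 to 4 and 1, 3, 4 and 1 in siHoxa5 libraries 1 to 4, 8 against 9 in all (two-sided exact permutation test of the CPM, p = 0.657, n = 4 and 4, smallest possible p 0.0286). A lower HOXA5 level was therefore not detectable at this depth, and directions are those of the libraries as labelled. On the first principal component of all tested genes siHoxa5 libraries 2 and 4 lay farthest from siN (10.77 and 10.95, against 2.74 and 4.69 for siHoxa5 libraries 1 and 3, and -7.77 to -6.30 for siN). Of 18 cardiomyocyte markers 11 had counts, with summed levels of 54189 to 57756 CPM (counts scaled for library size) in siN and 68348 to 73293 in siHoxa5, while TNNI3, MYL2, MYL3, PLN, MB, NPPA and NPPB were at 0 in every library.

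A subunit of the SRP receptor, a subunit of the oligosaccharyltransferase and 3 coat subunits had lower levels in the siHoxa5 libraries. Of the 41 members 31 had enough counts to be tested, and 5 of these fell: SRPRA, RPN2, SEC23A, COPB1 and COPB2. Their siHoxa5 means were 73.4% to 81.7% of the siN means, and no member rose. Over all 3020 tested genes 102 fell, 3.38%, and 113 rose, 3.74%, or 7.12% in either direction (edgeR quasi-likelihood test with Benjamini-Hochberg adjustment over all tested genes, threshold 0.05). The median log2 fold change of the 31 was -0.19, against -0.0037 over all tested genes, and 27 of the 31 were below 0, against 50.6% of all tested genes. The members were chosen with earlier results of these data known, so this shared direction is no independent evidence. At an unadjusted p under 0.05, 11 members were lower and 0 higher, where 10.3% and 9.3% of all tested genes were. With DESeq2 3 members fell and 0 rose, where 1.95% of all tested genes fell. With limma-voom it was 4 and 0, where 3.18% fell. Leaving out 1 library gave 2 members that fell without siN library 4, 3 without siN library 1 or siHoxa5 library 2 or 3, and 4 to 6 without each of the others. In these fits 2.29% to 4.21% of all tested genes fell. The 4 siHoxa5 libraries lay wholly below the 4 siN libraries for 6 members, the 5 that fell and SSR3, and wholly above for none, where 5.76% and 6.19% of all tested genes did so. In bulk RNA such a difference cannot tell fewer cells of a type from less RNA per cell.

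**Figure D1:**
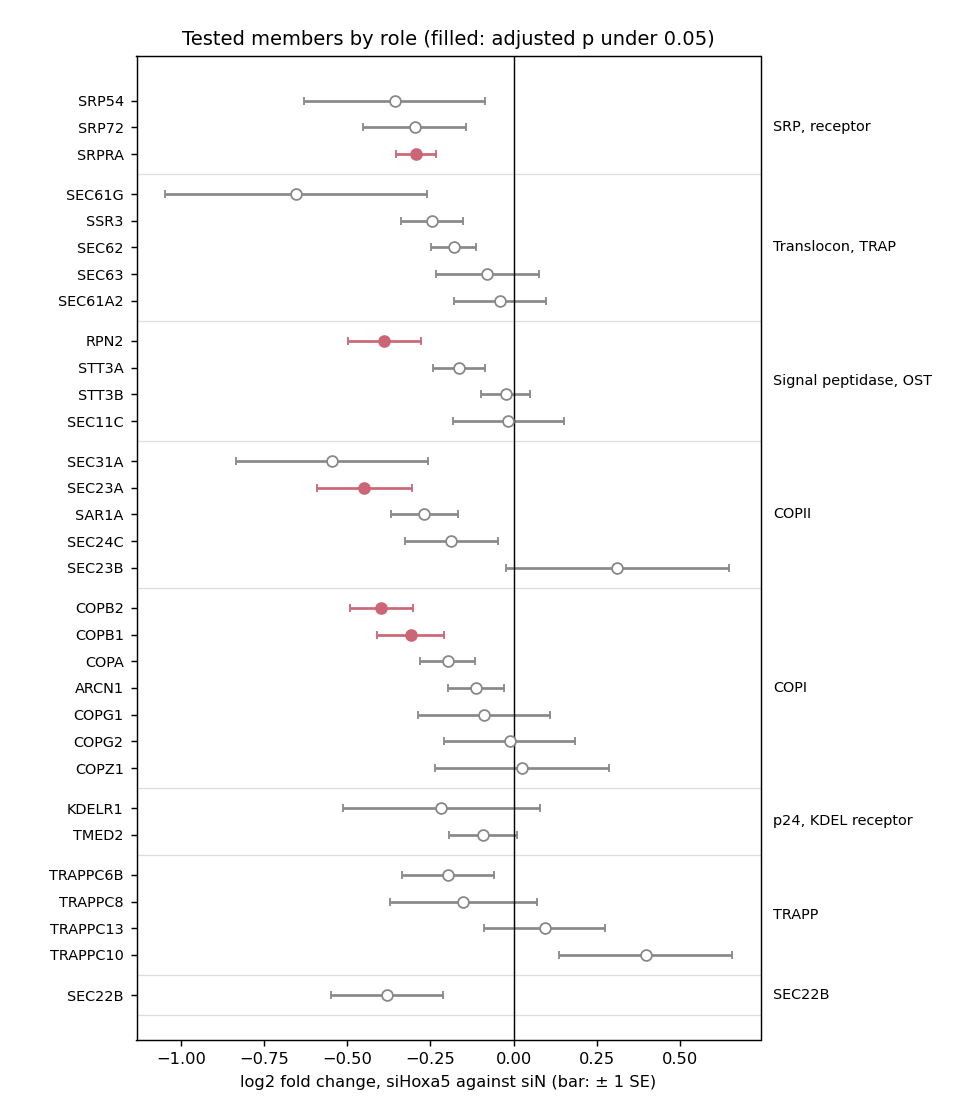
Log2 fold change, siHoxa5 against siN, of the 31 tested members, arranged by role, with bars of 1 standard error. Filled points are the 5 genes past the adjusted threshold, all to the left of 0, and 4 members lie to the right of 0.

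Among the tested members the lowest p was that of SRPRA. SRPRA encodes the alpha subunit of the SRP receptor, a GTPase that meets the SRP at the ER membrane (chromosome 9, 35211203 to 35217003, plus strand, RefSeq, GRCm38.p6). Its level was 1189, 1205, 1338 and 1291 CPM in siN libraries 1 to 4. In siHoxa5 libraries 1 to 4 it was 926, 1062, 1024 and 1093 CPM. Every siHoxa5 library was below every siN library, with siHoxa5 library 1 the lowest, and the mean fell from 1256 ± 70.9 to 1026 ± 72.7 CPM (SD, n = 4 each), 81.7% of the siN mean (log2 fold change -0.29, SE 0.06, edgeR adjusted p = 0.000188). The call held under all 16 processing alternatives, with adjusted p from 9.60e-07 to 0.00656. In the GENCODE M21 annotation 19.9% of the 50-base words of its longest transcript also occur in other genes, chiefly Gm6733, so some reads could have been shared.

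The SRP proteins themselves were measured less precisely. SRP72, which binds the SRP RNA, had 111, 127, 129 and 109 CPM in siN and 126, 98.4, 88.05 and 72.8 CPM in siHoxa5 (log2 fold change -0.30, SE 0.16, edgeR adjusted p = 0.273). Only siHoxa5 library 1 lay within the siN range, and the test was not passed. SRP54, the GTPase that recognises the signal sequence, had means of 36.9 ± 12.6 and 28.7 ± 4.00 CPM (log2 fold change -0.36, SE 0.27, edgeR adjusted p = 0.511). Mouse has several near-identical Srp54 copies, and in GENCODE M21 75.2% of the words of Srp54a occur elsewhere, mostly in Srp54b. Which copies were counted is not known, since the annotation used for counting was not given, so the row SRP54 was not assigned to 1 copy. SRP9, SRP14, SRP19, SRP68 and the beta receptor subunit SRPRB had 0 to 6 counts in all.

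At the channel and its partners 5 members were tested, all 5 with a log2 fold change below 0 and none past the threshold. SSR3, the gamma subunit of TRAP, had 418, 348, 346 and 369 CPM in siN. Its values in siHoxa5 were 346, 339, 292 and 273 CPM. The groups did not overlap, but siHoxa5 library 1 and siN library 3 were almost level (log2 fold change -0.25, SE 0.09, edgeR adjusted p = 0.0914). SEC62, a channel partner that also serves as a receptor for the removal of ER by autophagy, had 764, 973, 861 and 807 CPM in siN and 753, 729, 726 and 798 CPM in siHoxa5 (log2 fold change -0.18, SE 0.07, edgeR adjusted p = 0.088). SSR3 passed without siHoxa5 library 1 (-0.30, edgeR adjusted p = 0.0357) and SEC62 without siHoxa5 library 4 (-0.21, edgeR adjusted p = 0.0390).

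SEC61G, the small gamma subunit of the channel, had the largest decrease in size and the least precise one, with 12, 7, 15 and 17 counts in siN and 5, 7, 3 and 14 in siHoxa5 (log2 fold change -0.65, SE 0.39, edgeR adjusted p = 0.365). Libraries 2 and 4 of siHoxa5 were inside the siN range. SEC63, which brings the chaperone BiP to the channel, had -0.08 (SE 0.15), and SEC61A2, an isoform of the pore-forming alpha subunit, had -0.04 (SE 0.14). For these last 2 genes the change was smaller than its standard error.

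**Figure D2:**
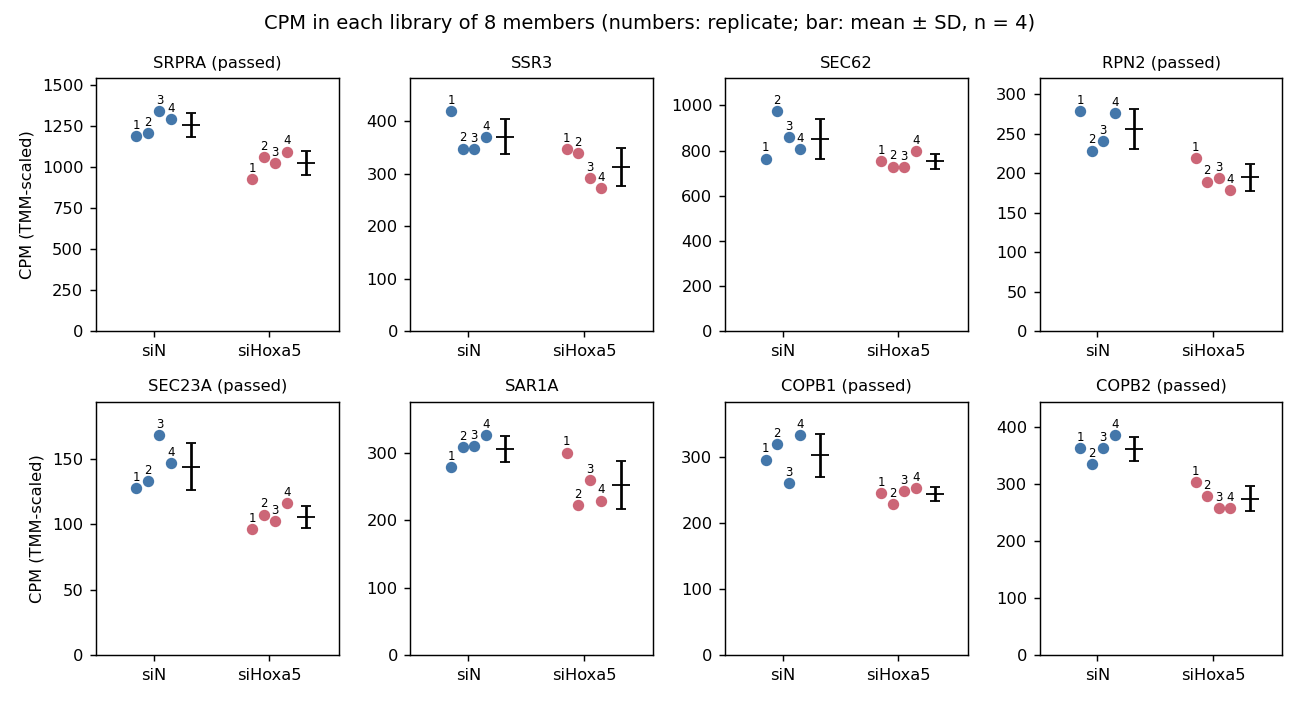
CPM in each of the 8 libraries for SRPRA, SSR3, SEC62, RPN2, SEC23A, SAR1A, COPB1 and COPB2, with numbers for the replicate and bars for mean and SD (n = 4). For the 5 genes marked as passed and for SSR3 every siHoxa5 point is below every siN point, whereas for SEC62 and SAR1A the highest siHoxa5 library reaches into the siN range.

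Among genes that modify the entering chain, RPN2 fell. It encodes ribophorin II, a non-catalytic subunit of the oligosaccharyltransferase (chromosome 2, 157279098 to 157326318, plus strand). The siN libraries had 278, 229, 241 and 276 CPM and the siHoxa5 libraries 219, 189, 194 and 178 CPM. The highest siHoxa5 library was below the lowest siN library, and the mean went from 256 ± 24.98 to 195 ± 17.1 CPM, 76.3% of siN (log2 fold change -0.39, SE 0.11, edgeR adjusted p = 0.0132). The call was lost without siN library 1 (-0.34), without siN library 4 (-0.35), without siHoxa5 libraries 2 and 4 together (-0.31) and after each library's dependence on length and GC content was taken out (-0.32), with adjusted p of 0.00435 to 0.150 over the 16 alternatives.

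The catalytic subunits differed less between groups. STT3A, which glycosylates chains as they enter the ER, had 569, 503, 556 and 499 CPM in siN and 501, 437, 471 and 487 CPM in siHoxa5 (log2 fold change -0.16, SE 0.08, edgeR adjusted p = 0.216). STT3B, which acts on sites that were skipped, had 575 ± 22.1 and 566 ± 28.5 CPM (log2 fold change -0.02, SE 0.07, edgeR adjusted p = 0.907). Its standard error was among the smallest of the members, and the libraries of the groups were mixed. SEC11C, a catalytic subunit of signal peptidase, had -0.02 (SE 0.17). Whether RPN2 and STT3B differed in their response was not tested.

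In the COPII coat SEC23A fell and SEC23B did not pass. SEC23A encodes an inner coat subunit that binds cargo adaptors and activates the GTPase of SAR1 (chromosome 12, 58958384 to 59012017, minus strand). Its siN values were 128, 133, 168 and 147 CPM, and its siHoxa5 values were 96.3, 107, 103 and 116 CPM. The groups did not overlap, and the mean went from 144 ± 18.1 to 106 ± 8.45 CPM, 73.4% of siN (log2 fold change -0.45, SE 0.14, edgeR adjusted p = 0.0341). The gene was called under 9 of 16 alternatives. Leaving out siN library 3 (-0.37) or 4 (-0.44), or siHoxa5 library 1 (-0.40), 2 (-0.46) or 3 (-0.44), ended the call, as did DESeq2 (-0.45, adjusted p = 0.104) and the absence of a filter (-0.44), while the call held without siHoxa5 libraries 2 and 4 (-0.53). Adjusted p ranged from 0.0242 to 0.172.

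SAR1A, the small GTPase that starts COPII assembly, had 278, 308, 310.1 and 326 CPM in siN and 300.4, 222, 259 and 229 CPM in siHoxa5 (log2 fold change -0.27, SE 0.10, edgeR adjusted p = 0.0882). Its siHoxa5 library 1 was inside the siN range and the other 3 were below it, and without that library the gene passed (-0.36, edgeR adjusted p = 0.0160), whereas without siHoxa5 libraries 2 and 4 the value was -0.12. SEC31A, of the outer coat, had -0.55 (SE 0.29) on 144 counts, and SEC24C, a cargo adaptor, had -0.19 (SE 0.14). SEC23B, the other SEC23 isoform, had 13, 11, 10 and 14 counts in siN and 17, 9, 11 and 17 in siHoxa5 (log2 fold change 0.31, SE 0.33, edgeR adjusted p = 0.671). The 3 other COPII members, SAR1B, SEC23IP and SEC24A, had 54 to 63 counts in all and were not tested.

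Of the COPI coat, or coatomer, 7 of 9 subunit genes were members and all 7 were tested: COPB1 and COPB2 fell, and 5 did not pass. COPB2 encodes beta-prime-COP, which forms the outer coat with alpha-COP and binds the dilysine signals of returning cargo (chromosome 9, 98563731 to 98588375, plus strand). It had 363, 335, 364 and 386 CPM in siN and 304, 279, 258 and 258 CPM in siHoxa5. No siHoxa5 library reached the lowest siN library, and the mean went from 362 ± 20.9 to 275 ± 21.7 CPM, 75.9% of siN (log2 fold change -0.40, SE 0.09, edgeR adjusted p = 0.0017). COPB2 was called under all 16 alternatives (-0.45 to -0.36, adjusted p 0.000444 to 0.0200).

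COPB1 encodes beta-COP, of the adaptor-like inner layer (chromosome 7, 114215559 to 114254680, minus strand). Its values were 295, 319, 259.7 and 332 CPM in siN and 245, 228, 248 and 253 CPM in siHoxa5. The groups were separated only narrowly, between siN library 3 and siHoxa5 library 4, and the means were 302 ± 31.9 and 243 ± 10.9 CPM (log2 fold change -0.31, SE 0.10, edgeR adjusted p = 0.0408). COPB1 was called under 6 of 16 alternatives, with adjusted p of 0.0207 to 0.173. The call was lost with DESeq2 (-0.31), limma-voom (-0.30), no filter (-0.30) or the length and GC trend removed (-0.29), without siN library 1 (-0.32), 2 (-0.28) or 4 (-0.26), without siHoxa5 library 2 (-0.28) or 3 (-0.32), and without siHoxa5 libraries 2 and 4 together (-0.29).

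The other 5 coatomer genes had log2 fold changes from -0.20 to 0.02. COPA, or alpha-COP, had 484, 441, 438 and 490.2 CPM in siN and 444, 386, 424 and 358 CPM in siHoxa5 (log2 fold change -0.20, SE 0.08, edgeR adjusted p = 0.143). ARCN1, or delta-COP, had means of 433 ± 27.1 and 401 ± 25.6 CPM (log2 fold change -0.11, SE 0.08, edgeR adjusted p = 0.498). The siN range took in siHoxa5 library 1 for COPA and libraries 2 and 4 for ARCN1. COPG1 (-0.09, SE 0.20) and COPG2 (-0.01, SE 0.20), the alternative gamma subunits, and COPZ1 (0.02, SE 0.26), a zeta subunit, had changes under 1 standard error. Whether the changes of the subunits differ from each other was not tested.

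The promoters of COPB1, COPB2 and SEC23A share a short motif, and they are printed for that reason. Windows of 300 bases around the annotated starts (250 before, 50 after, RefSeq, GRCm38.p6, the mm10 build that the submitters name) were given for 36 of the 41 members. They were searched on both strands for TGACGTGG, the core of the unfolded protein response element UPRE, for TGACGTCA, the cyclic AMP response element CRE, which shares its first 6 bases with the UPRE, and for the ER stress elements ERSE and ERSE-II, whose last 5 bases, CCACG, also begin the reverse complement of the UPRE. TGACGTGG was found in 3 members, COPB1, COPB2 and SEC23A, 8.33% of 36, and in 193 of 27025 genes with a window, 0.714%. Among the 2336 tested genes with a window of the same name the share was higher, 1.54%. The other 3 motifs were in 0 members and in 2.03% (CRE), 0.137% (ERSE) and 0.0444% (ERSE-II) of all genes. The stretches from 150 bases before to 20 after the start, 5′ to 3′ on the gene's strand, are from chr7:114254661-114254830 (minus strand), chr9:98563581-98563750 (plus strand) and chr12:59011998-59012167 (minus strand), with the motif or its reverse complement in capitals.
Copb1: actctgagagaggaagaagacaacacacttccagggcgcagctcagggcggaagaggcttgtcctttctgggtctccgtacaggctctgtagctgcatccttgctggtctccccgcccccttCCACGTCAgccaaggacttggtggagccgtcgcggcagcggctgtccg
Copb2: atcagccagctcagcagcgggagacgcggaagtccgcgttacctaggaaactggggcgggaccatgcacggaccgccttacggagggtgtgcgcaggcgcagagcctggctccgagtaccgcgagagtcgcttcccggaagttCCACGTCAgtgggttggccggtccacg
Sec23a: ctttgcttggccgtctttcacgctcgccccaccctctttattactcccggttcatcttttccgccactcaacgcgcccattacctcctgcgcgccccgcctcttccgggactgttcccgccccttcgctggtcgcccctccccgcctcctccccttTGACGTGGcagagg
With the first transcribed base as 1, the motif lies at -28 to -21 in Copb1, at -7 to 1 in Copb2 and at 7 to 14 in Sec23a. Of the 27 tested members with a window, the 3 that hold the motif all fell with all 8 libraries in edgeR. Of the 24 without it 2 fell, SRPRA and RPN2. Among the 2336 tested genes with a window 75 fell, 3.21%, and 85 rose. The split depends on processing: of 16 alternatives COPB1 was called under 6, SEC23A under 9, RPN2 under 12, and COPB2 and SRPRA under all. The overlap of motif and calls was noticed after the values were seen, carries no test, and a match of letters does not show binding.

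Of 13 symbols for p24 proteins and KDEL receptors 3 were members and 2 were tested, neither past the threshold. TMED2, a p24 protein that travels in both coats, had 271, 279, 313 and 326 CPM in siN and 243, 286, 241 and 351 CPM in siHoxa5 (log2 fold change -0.09, SE 0.10, edgeR adjusted p = 0.68). Its siHoxa5 library 4 was the highest of all 8 and siHoxa5 libraries 1 and 3 the lowest. In the annotation 27.6% of its words are shared with other genes, mostly Gm10698. KDELR1, a receptor that returns ER chaperones, had 29.5 ± 10.01 and 25.5 ± 4.93 CPM (log2 fold change -0.22, SE 0.30, edgeR adjusted p = 0.749). TMED5 had 3, 10, 3 and 8 counts in siN and 0, 3, 5 and 3 in siHoxa5 and did not reach the filter.

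The TRAPP genes showed no call and no common direction. Of 8 members 4 were tested. TRAPPC10, a subunit of TRAPPII, had 23.1, 42.9, 37.8 and 24.5 CPM in siN and 62.05, 38.3, 24.5 and 43.7 CPM in siHoxa5, with siHoxa5 library 1 the highest and libraries 2 and 3 among the siN values (log2 fold change 0.40, SE 0.26, edgeR adjusted p = 0.424). TRAPPC6B, a core subunit, had 145 ± 23.5 and 127 ± 12.9 CPM (log2 fold change -0.20, SE 0.14, edgeR adjusted p = 0.467). TRAPPC13 and TRAPPC8, of TRAPPIII, had 0.09 (SE 0.18) and -0.15 (SE 0.22). TRAPPC11, TRAPPC12, TRAPPC4 and TRAPPC2, with 16 to 58 counts in all, were not tested.

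SEC22B, a SNARE of vesicles between ER and Golgi, had 102, 87.3, 99.2 and 103 CPM in siN and 60.4, 89.3, 70.1 and 81.8 CPM in siHoxa5 (log2 fold change -0.38, SE 0.17, edgeR adjusted p = 0.174). Only siHoxa5 library 2 exceeded the lowest siN library. SEC22A and SEC14L1, a lipid-binding-domain protein that the name rule also takes in, had 63 and 47 counts and were not tested. The 10 untested members together had 249 counts in siN and 196 in siHoxa5, with a lower mean CPM in siHoxa5 for 8 and a higher one for 2. The counts are not scaled for library totals, which were larger in siN. Each of these members had only 16 to 63 counts in all, and their direction was not tested. Of the 31 tested members, 28 reached the filter's minimum of 16.1 CPM in all 8 libraries.

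Summed over all 41 members, filtered or not, the siN libraries held 7339 to 7685 CPM and the siHoxa5 libraries 6421 to 6660.3 CPM, so the groups did not overlap and siHoxa5 stood at 86.9% of the siN mean. Without SRPRA, the most abundant member, it stood at 87.96%. The 36 members that did not pass or were not tested summed to 5118 to 5289 CPM in siN and 4595 to 4794 CPM in siHoxa5, 90.2%. That set leaves out every member that fell, so it was chosen by the outcome of the test. The role with the lowest ratio among those whose groups did not overlap was SRP with its receptor (81.6%), then COPII (82.7%), COPI (85.9%), the channel with TRAP (88.2%) and the signal peptidase and oligosaccharyltransferase genes (91.2%). The SRP ratio is mainly that of SRPRA, which gave 1256 of the mean 1412 CPM of that role in siN. No difference between roles was tested. The sums of the p24 and KDEL receptor genes (92.4%), the TRAPP genes (95.9%) and the 3 remaining members (80.9%) overlapped between groups.

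The median over members was lower in each siHoxa5 library than in any siN library. The median log2 ratio of the 31 tested members to their siN mean was -0.18, -0.22, -0.23 and -0.16 in siHoxa5 libraries 1 to 4, and -0.03, -0.08, 0.04 and 0.07 in siN libraries 1 to 4. The largest shift was in siHoxa5 library 3 and the smallest in siHoxa5 library 4. Over all tested genes these medians ran from -0.0054 to -0.0025 in siN and from -0.021 to 0.0025 in siHoxa5. The reference was the siN mean, so the siN values lie around 0 by construction. The members were chosen with earlier results known, so the shift is no independent evidence. In numbers of genes, 24, 28, 28 and 20 of the 31 were below their siN mean in siHoxa5 libraries 1 to 4, and 18, 23, 8 and 10 in siN libraries 1 to 4. On this count the groups overlapped, since siN library 2 had more genes below the mean than siHoxa5 library 4. The matching counts over all tested genes were not taken. Without siHoxa5 libraries 2 and 4, 3 of 34 tested members fell (SRPRA, COPB2 and SEC23A) and 0 rose, where 2.33% of all tested genes fell.

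**Figure D3:**
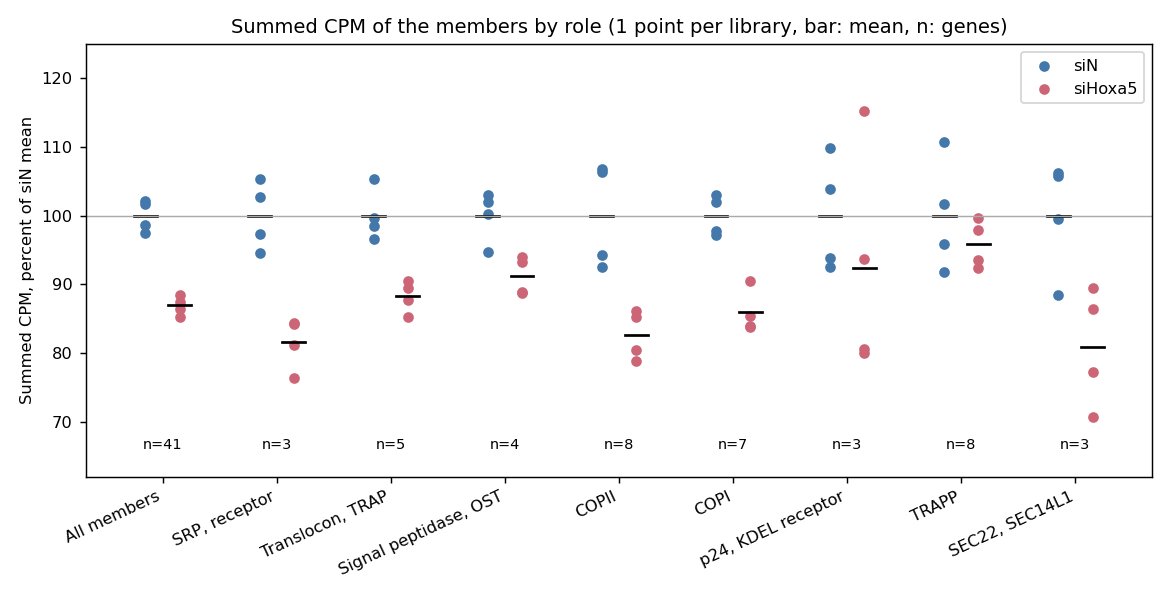
Summed CPM of the members by role as a percentage of the siN mean, 1 point per library, with bars for the group mean (n below: genes summed). For all 41 members, SRP, the channel, oligosaccharyltransferase, COPII and COPI the siHoxa5 points lie below all siN points, and for p24, TRAPP and the SEC22 genes with SEC14L1 they overlap.

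The members are an uneven sample of each complex. On the scale of mean CPM per kilobase of the longest GENCODE M21 transcript, the coatomer genes COPB2, ARCN1, COPA and COPB1 were at 104, 102, 93.7 and 81.4, COPG2, COPZ1 and COPG1 at 15.3, 14.3 and 11.4, and COPE, the epsilon subunit of the same complex, at 0.0698, from 1 count in all. In the channel SEC61A2 was at 53.7 and SEC61A1, the other alpha subunit, at 0.347, from 645 and 5 counts. RPN1, the partner of RPN2 in the oligosaccharyltransferase, had 3 counts, and SEC13, SSR2, SSR4, SEC24D, SEC16A and TRAPPC1 had 0. Whether these low counts reflect expression or the way reads were mapped and named was not tested. Ratios between subunits are therefore not given as expression differences. The comparison between groups covers only the subunits with counts.

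**Figure D4:**
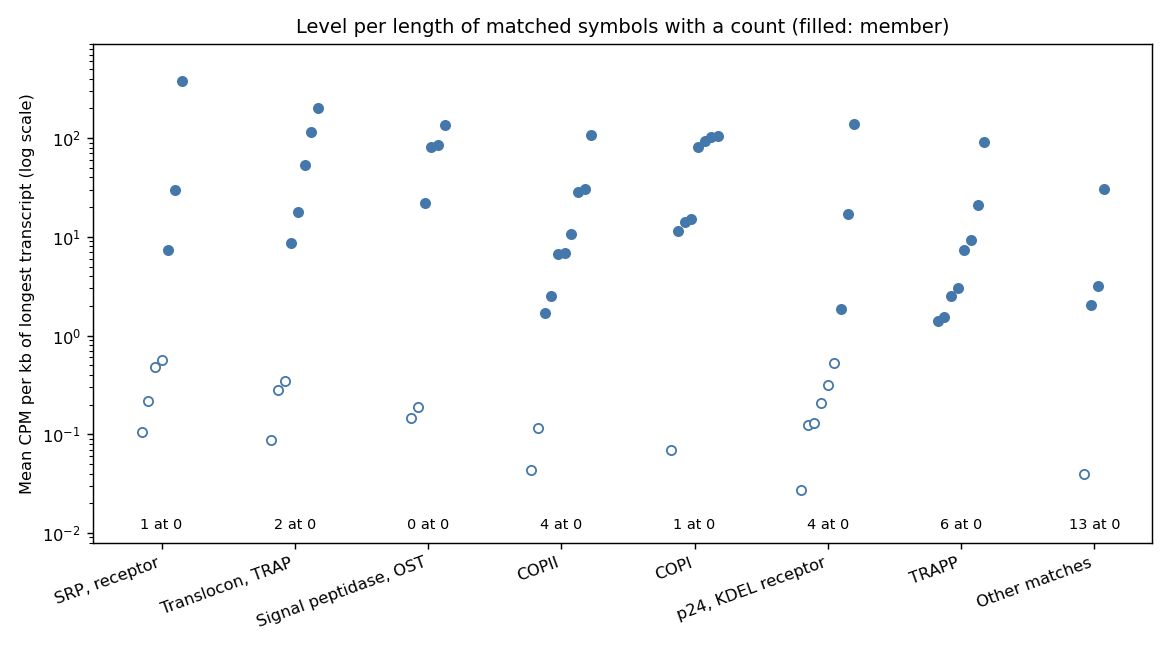
Mean CPM over the 8 libraries per kilobase of the longest annotated transcript, on a log axis, for matched symbols with a count and a mouse transcript of that name, by role. Filled points are members, open points had under 16 counts in all, and the numbers at the foot give the matched symbols at 0, antisense names included. In every role except TRAPP, where no open point is drawn, members and near-empty subunits of the same machinery both occur.

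Of the remaining subunits and partners of the route, taken from 3 lists, BTF3 and BCAP31 fell and none rose. Of 35 listed genes of glycosylation, signal peptidase and membrane insertion 11 were tested, 1 fell, 0 rose and 10 did not pass (median log2 fold change -0.23). The one that fell was BTF3, a subunit of the nascent chain complex at the ribosome (1756 ± 111 to 1509.9 ± 141 CPM, log2 fold change -0.22, SE 0.06, edgeR adjusted p = 0.00605). SPCS2, a non-catalytic signal peptidase subunit, had -0.75 (SE 0.26, edgeR adjusted p = 0.0549). Of 22 cargo receptors and exit site genes 7 were tested and 1 fell, BCAP31, an ER membrane protein that escorts other membrane proteins (169.6 ± 29.3 to 126 ± 16.6 CPM, log2 fold change -0.44, SE 0.13, edgeR adjusted p = 0.0271), with a median of -0.13. Of 34 SNAREs, tethers and regulators of ARF GTPases 6 were tested and all 6 missed the threshold, with a median of -0.23 and COG3, of the COG tether, at -0.60 (SE 0.21). Over all tested genes 3.38% fell.

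Among ER chaperones and genes of the unfolded protein response HSPA5 and SYVN1 fell. Of 23 listed genes 11 were tested, 2 fell, 0 rose and 9 did not pass, with a median of -0.30 and 10 of 11 below 0. Over all tested genes 3.38% fell, 3.74% rose and 50.6% were below 0. HSPA5, the chaperone BiP that helps pull chains through the channel, was lower (1168 ± 34.05 to 917 ± 23.6 CPM, log2 fold change -0.35, SE 0.06, edgeR adjusted p = 5.02e-06). SYVN1, the ubiquitin ligase of ER-associated degradation, was lower too (94.3 ± 11.2 to 64.7 ± 6.13 CPM, log2 fold change -0.54, SE 0.18, edgeR adjusted p = 0.0383). This list was chosen with earlier results known, so its direction is no independent evidence.

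Markers of other cells moved with the groups only in part. Of 12 fibroblast markers 10 had counts, summing to 10377 to 11092 CPM in siN and 11114 to 13037 in siHoxa5, with COL1A1 the 1 of 5 tested that changed (0.21, SE 0.04) and LUM and TCF21 at 0. Cardiomyocyte markers, given above, rose in 5 of 10 tested genes and fell in 1 (TNNT2), where 3.74% and 3.38% of all tested genes did so. Their part in the lower secretory genes was not tested. Endothelial markers summed to at most 35.9 CPM in any library, with PECAM1, CDH5 and VWF among the 6 of 10 at 0. Smooth muscle and pericyte markers reached at most 30.8 CPM, with 5 of 9 at 0. Macrophage and leukocyte markers reached at most 1.82 CPM, with 8 of the 10 in the table at 0. Since 7 of 18 cardiomyocyte markers were also at 0, low or absent counts do not show that a cell type was absent.

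**Figure D5:**
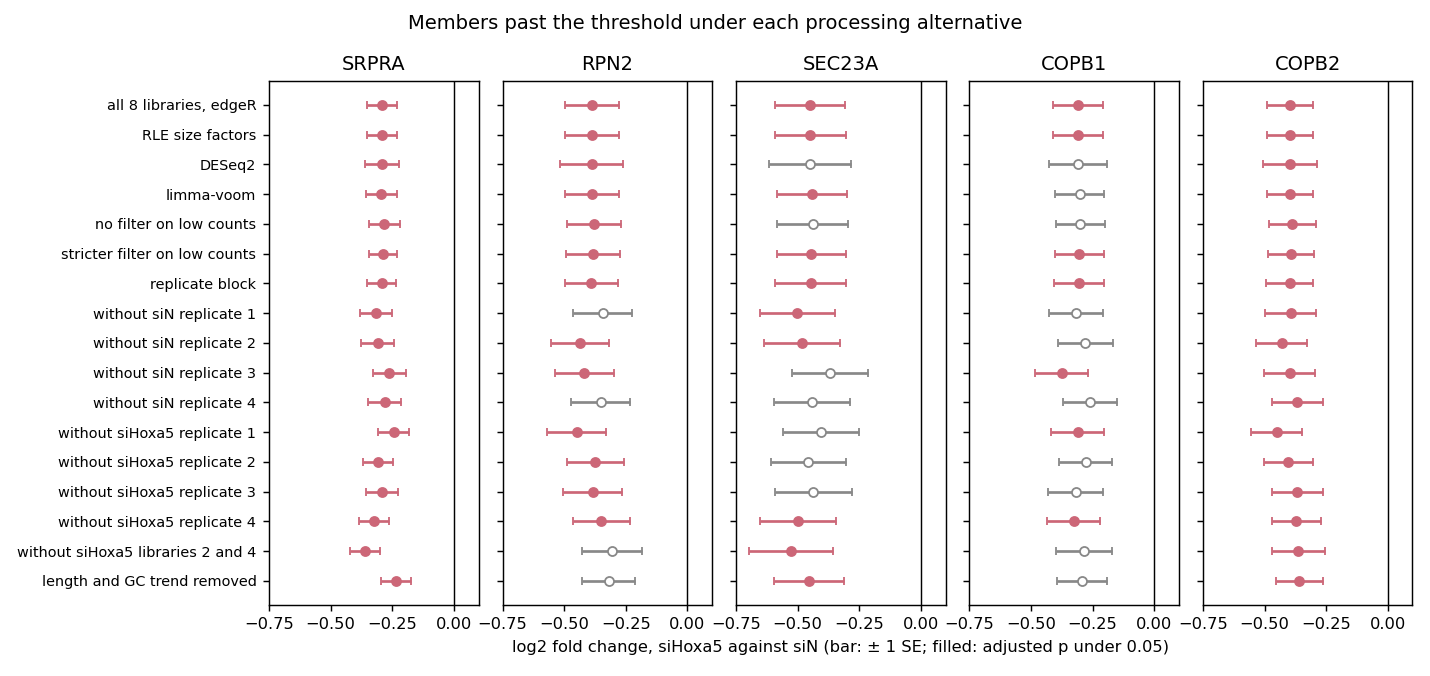
Log2 fold change (bar: 1 standard error) of the 5 members that fell, with all 8 libraries in edgeR and under each of 16 processing alternatives. Filled points passed an adjusted p of 0.05: all for SRPRA and COPB2, and 12, 9 and 6 of the 16 alternatives for RPN2, SEC23A and COPB1, while every value stays below 0.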

How the data were processed

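RNA-seq was measured in 8 libraries, 4 siN and 4 siHoxa5, grouped by their titles. The authors deposited estimated counts for each gene symbol with no scaling, whole apart from 4 rows that hold values ending in 0.5. For these estimated counts the authors name, per the submitters' processing notes, the build mm10 and the tools HTSeq, STAR 2.6.1b, R 3.5.3 and FastQC 0.11.8, without saying how each was used. For annotation, strand setting and shared reads nothing was given in the sources used here. The 8 libraries' own files were identical to the series table. The kit named in the labels' protocols does not mark strand, so reads from a gene and from its antisense partner were not distinguished.

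Values were rounded and tested in edgeR 4.0.16 (R 4.3.3, limma 3.58.1): TMM scaling, filterByExpr (minimum count 10, total 15), robust quasi-likelihood fit with group as the only term, Benjamini-Hochberg adjustment over 3020 tested genes, which held 98.6% of the counts, threshold 0.05. CPM use TMM-scaled library sizes, and standard errors are the log2 fold change over the square root of F. The median standard error over tested genes was 0.17. The code was tested on simulated counts. Alternatives were RLE factors, DESeq2 1.42.0, limma-voom, no filter, a minimum count of 30, a replicate block, each library left out, and, added after seeing the data, siHoxa5 libraries 2 and 4 left out together and each library's trend on length and GC content removed. Mouse names were matched ignoring case and through RefSeq synonyms.

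Members and gene lists were chosen with earlier results of these data known. Named members are those past the threshold and, in each role, the 3 with the smallest p and the 2 with the largest total; other members are named to account for them. Of other lists, genes past the threshold are named; SPCS2 and COG3 were chosen after their values were seen. Protein sequences were not used here.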

Additional observations from a re-analysis of the deposited data

Results flagged for a closer look

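TRAPPC6B in the siHoxa5 libraries was set apart by 1 library. Library 1 had 108 CPM and the other 3 had 130.4 to 135 CPM, so its gap to the nearest was 0.839 of the group's range, above Dixon's 95% critical value for 4 samples. Of 56 groups of 4 libraries looked at, this was the only one past that value, where chance alone gives about 1 in 20. Without siHoxa5 library 1 the log2 fold change of TRAPPC6B was -0.12 instead of -0.20, and it passed the threshold in neither case.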

How the results depend on the processing

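In edgeR 5 members fell and 0 rose among all 8 libraries, and 0 rose under any of the 14 alternative settings and the 2 added after seeing the data. With DESeq2 3 members fell, with no filter 3, without siHoxa5 libraries 2 and 4 again 3, and with the length and GC trend removed 3. Leaving out 1 library at a time gave 2 to 6. Of all tested genes 3.38% fell with all 8 libraries in edgeR, 1.95% with DESeq2 and 0.858% with no filter. Without siHoxa5 libraries 2 and 4 the share was 2.33%, with the trend removed 2.59%, and without 1 library 2.29% to 4.21%. Over all genes DESeq2 called 119 (59 lower, 60 higher) where edgeR called 215 (102 and 113), leaving out siHoxa5 libraries 2 and 4 gave 143 (68 higher), and leaving out 1 library gave 145 to 260, of which 70 to 130 were lower and 73 to 130 higher. The cause of these differences was not tested, though an alternative that leaves out libraries has fewer samples. Members whose groups did not overlap numbered 6, all lower (5.76% of all tested genes were lower in this way and 6.19% higher), 6 to 10 without 1 library, and 12 lower and 1 higher without siHoxa5 libraries 2 and 4. Fewer libraries overlap less often: with the scaling of all 8 libraries kept, 7.45% to 8.77% of all tested genes were lower in this way and 7.62% to 9.24% higher without 1 library, and 13.1% lower and 11.6% higher without siHoxa5 libraries 2 and 4 (11 members lower and 1 higher on that scaling). The summed CPM of all members in siHoxa5 stayed at 86.3% to 87.5% of siN with 1 library left out. Of 377 values of 24 named members under the alternatives, 351 kept their direction and side of the threshold, 21 lost and 3 gained a call, and 2 changed direction, both near 0 and without siHoxa5 library 3 (TRAPPC13 -0.0093, in a range of -0.0093 to 0.177 with 1 library left out, and STT3B 0.0101, in a range of -0.0416 to 0.0101). The difference of mean HOXA5 CPM ranged from -0.264 to 1.502 with 1 library left out. With the replicate number as a block the same 5 members fell, where 4.14% of all tested genes fell (250 genes called in either direction). Same-numbered libraries correlated at -0.02 to 0.07 in their deviations from the group means, and 4 of 8 libraries correlated best with their own number, so the numbers were not taken as pairs. Low counts limit the precision: standard errors of tested members ran from 0.06 (SRPRA) to 0.39 (SEC61G).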

Other observations

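The motif TGACGTGG, seen in the promoter windows of COPB1, COPB2 and SEC23A, was then looked up in all tested genes. Of 2336 tested genes with a promoter window of the same name 36 held it, 1.54%, and of these 5 fell and 2 rose, where 75 of the 2336 fell and 85 rose. The 5 include the 3 coat genes that prompted the search, and without them 2 of 33 fell and 2 rose, with a median log2 fold change of -0.04, so the other genes with the motif had no common direction. Besides the 3 coat genes the 2 that fell were ARF1, the GTPase that recruits COPI to membranes (243 ± 9.99 to 188 ± 34.04 CPM, log2 fold change -0.36, SE 0.11, edgeR adjusted p = 0.0303), and LRRC59, a ribosome-binding protein of the ER membrane (81.3 ± 10.7 to 53.9 ± 10.1 CPM, log2 fold change -0.59, SE 0.19, edgeR adjusted p = 0.0397). The 2 that rose were PPARGC1A, the coactivator PGC-1alpha (109.6 ± 14.1 to 254 ± 41.02 CPM, log2 fold change 1.21, SE 0.13, edgeR adjusted p = 9.64e-15), and DCUN1D1, a factor of cullin neddylation (572 ± 18.2 to 681 ± 50.3 CPM, log2 fold change 0.25, SE 0.07, edgeR adjusted p = 0.0173). The other 29 did not pass, among them GBF1, the exchange factor that activates ARF1 at the Golgi (-0.12, SE 0.10), and the median over the 36 was -0.05. The motif and the genes were singled out after the values were seen, so these counts are a description with no test.

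The isoform pairs of the pathway were unevenly measured. SEC23A and SEC23B had log2 fold changes of -0.45 and 0.31 on 615 and 102 counts, SAR1A had -0.27 on 1376 counts while SAR1B had 63, and STT3A and STT3B had -0.16 and -0.02. No difference between isoforms was tested.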
